A study of Homo sapiens with 12 samples.

Results

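SLERT, a nucleolar long noncoding RNA, was probed in living PA1 cells by SHAPE-MaP, and the values described here are its mutation counts with NAI and with DMSO. They come from 4 of the 12 libraries of the series, 2 with NAI and 2 with DMSO, numbered as replicates 1 and 2. SLERT has 694 nucleotides, counted here from the 5′ end, of the 815 probed in both RNAs of the series. A nucleotide was kept where its effective depth, the number of reads the deposited tables give as usable at that place, was at least 1000 in all 4 libraries. This kept 693 nucleotides, and the last, A694, had no usable reads.

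PA1 is an established human ovarian teratocarcinoma line, and no genetic change of it is named in the labels. The NAI cells were held in medium with 200 mM NAI, delivered in DMSO, at 37 °C for 10 minutes, and the DMSO cells received the solvent alone. RNA of both was copied with SuperScript II in 6 mM Mn2+ from primers for SLERT and amplified by nested PCR. The 2 libraries of a denatured control, heated to 95 °C in formamide, entered the same statistical fit and are otherwise cited only beside a few runs of nucleotides. The treatment label of these samples names another condition than the sample title, so titles and the column names of the tables (modified, untreated, denatured) set the groups. No source says whether replicates were separate cultures, so every p-value here measures the spread between libraries, which may be technical.

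In SHAPE-MaP, NAI attaches an acyl group to the 2′-hydroxyl of nucleotides whose backbone is free to move. Reverse transcriptase in manganese reads through the adduct and leaves a mutation in the cDNA, so the mutation rate above that of DMSO reports flexibility. Nucleotides held in helices, in tertiary contacts or by protein react less. SLERT comes from the TBRG4 gene on chromosome 7, and each of its ends is a box H/ACA snoRNA, a fold of 2 hairpins of the class that guides pseudouridylation. SNORA5C forms the 5′ end, and the 3′ end is SNORA5A. It is known for its part in RNA polymerase I transcription in the nucleolus. In RefSeq (GRCh38.p14) SNORA5C is 137 and SNORA5A 134 bases long, and the span from the one to the other is 694 bases, the length of the deposited SLERT sequence. On that basis the snoRNA parts are nucleotides 1 to 137 and 561 to 694.

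Depth was high but uneven. The median effective depth per nucleotide ranged from 117237 reads in DMSO replicate 2 to 755624 in NAI replicate 1. These are PCR reads without molecular identifiers and not independent molecules. Both ends of SLERT, 20 nucleotides each, had mutation rates near 0 and are called terminal stretches. In addition, 2 stretches of 60 nucleotides, 212 to 271 and 423 to 482, were read more deeply than their surroundings in all 4 libraries, and they are called depth plateaus. At a plateau's end the size of the depth step differed between NAI and DMSO libraries. Many results that touch a plateau are therefore given with and without it, an analysis chosen after seeing the depths.

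**Figure D1:**
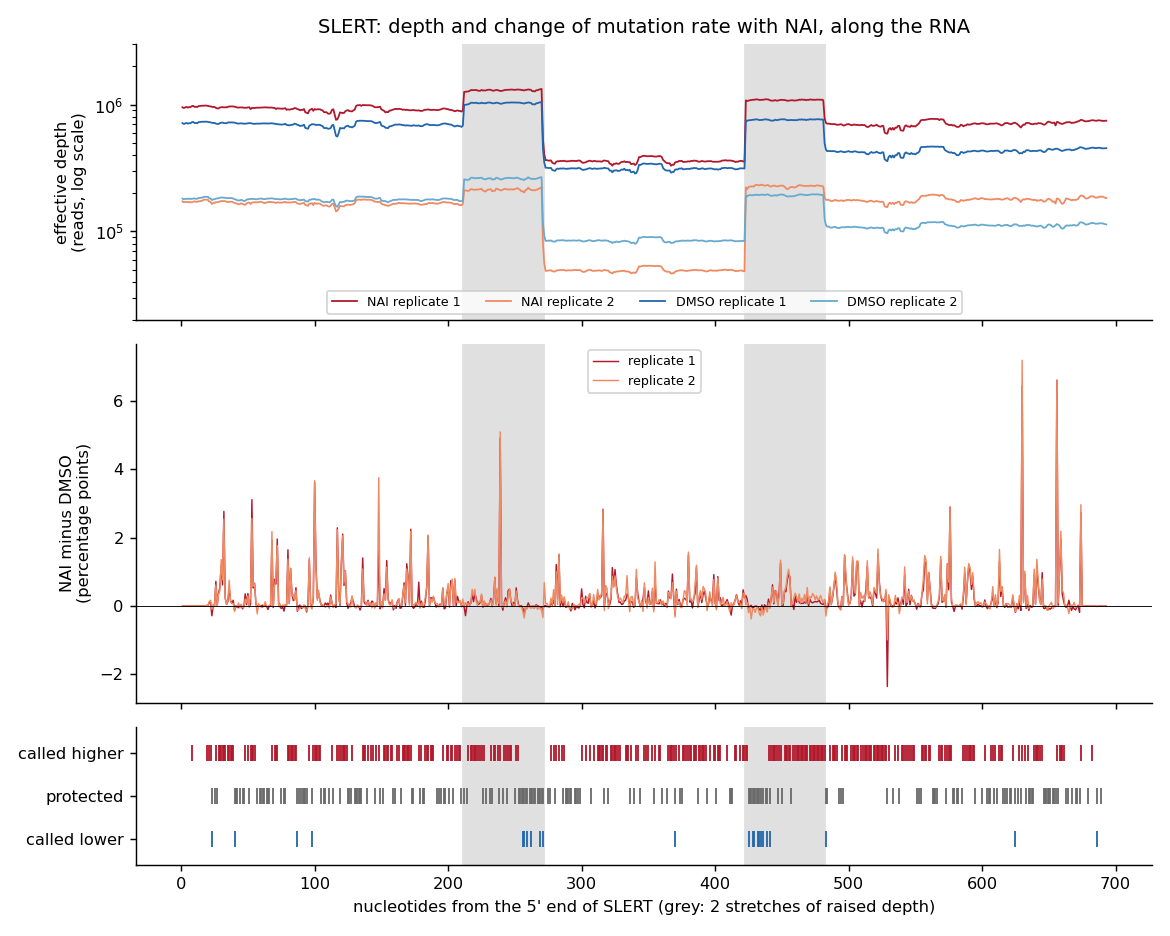
Effective depth of the 4 libraries (top, reads on a log scale), NAI minus DMSO mutation rate in each replicate (middle, percentage points) and the called and protected nucleotides (bottom) against position in SLERT, with the 2 depth plateaus in grey. Both replicates trace the same peaks, called-higher nucleotides spread along the RNA, and 15 of the 23 called-lower nucleotides lie in the plateaus.

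SLERT carried more mutations with NAI than with DMSO in both replicates. Over all kept nucleotides the library mutation rate was 0.960% and 0.970% in NAI replicates 1 and 2 and 0.714% and 0.690% in DMSO replicates 1 and 2. The groups did not overlap. Taken between same-numbered libraries, whose pairing is not settled, the difference was 0.262 ± 0.0239 percentage points (SD, n = 2 replicates). It was 0.285 points outside the terminal stretches and 0.290 without the plateaus. With 2 libraries against 2 the smallest exact p is 0.33, so this rate was not tested.

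Against DMSO, NAI raised the mutation rate of 311 of 693 nucleotides (44.9%) and lowered that of 23 (3.32%), by edgeR's quasi-likelihood test (two-sided, Benjamini-Hochberg adjusted p under 0.05). Under TMM scaling, which centres the typical nucleotide on no change, the median log2 change went from 0.23 to -0.06. With it the split was 182 higher (26.3%) and 192 lower (27.7%), and all 182 were among the 311. A call of higher in the rest of the text is thus relative to depth alone. The lower count was 39 without NAI replicate 1, 15 without NAI replicate 2, 10 without DMSO replicate 1 and 11 without DMSO replicate 2, whereas the higher count stayed between 255 and 307. Fitted without the plateaus, 573 nucleotides gave 262 higher (45.7%) and 9 lower (1.57%).

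Most rises were modest, and a few were large. Among the 311 the median rise was 1.58-fold and 0.316 points. A rise of at least 2-fold was seen at 100 nucleotides, of at least 5-fold at 21 and of at least 10-fold at 7. The 311 include 3 nucleotides in the terminal stretches, where mutation rates were near 0, and the 7 are not all outside these stretches. The 12 largest rises in points made up 24.5% of the summed NAI minus DMSO difference in replicate 1 and 23.3% in replicate 2. In 310 of the 311 both NAI libraries lay above both DMSO libraries, against 406 of all 693 nucleotides. The exception was A8 in the 5′ terminal stretch, with 41 and 0 mutations in the NAI replicates and 1 in each DMSO replicate.

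The difference of rate was close between replicates across the 654 nucleotides outside the terminal stretches, with Pearson's r of 0.970 and Spearman's rho of 0.863. The log2 ratio of NAI to DMSO gave 0.928 and 0.845. Outside the plateaus, over 534 nucleotides, the difference gave 0.969 and 0.864. Neighbouring nucleotides share reads and are not independent, so these describe the profile and carry no p.

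Among the nucleotides with the largest rises in points, the sequence around 6 is shown with 10 bases on either side. Capitals mark every nucleotide called higher, and the named nucleotide is the middle letter.
C630: gccAcagaAaCaCuGugacUC
G656: cccuguuccuGuGUCCcaggc
A100: ugggucAccUACCCUgggacc
U674: ggcucagggaUaaauuugGuu
G53: ggcugGcCcAGAUggcugcca
G32: GcccGuUUCUGUcAUAGCggg
A100, G53 and G32 stand within short runs of capitals. Around U674 only 1 other letter is a capital, but the 10 bases after it lie in the 3′ terminal stretch. In the terminal stretches mutation rates were near 0 and only 3 of 39 kept nucleotides were called higher, so U674 cannot be compared with the others in this.

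The highest rises lay in the SNORA5A part. C630 had 6.77% and 7.46% mutations in NAI replicates 1 and 2 and 0.317% and 0.260% in the DMSO replicates, a rise of 24.2-fold (edgeR adjusted p = 1.35e-14). G656 had 6.91% and 6.98% with NAI and 0.300% and 0.358% with DMSO, a rise of 21.4-fold (edgeR adjusted p = 2.84e-15). At both, the lower NAI library was far above the higher DMSO library. U674, the last nucleotide before the 3′ terminal stretch, reached 3.22% and 3.43% with NAI against 0.478% and 0.459%. U576 reached 3.69% and 3.59% against 0.792% and 0.701%. These 4 were the named rises of the SNORA5A part, and none lies in a plateau.

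Another 4 lay in the SNORA5C part, all below 1% with DMSO. A100 had 4.16% and 4.24% with NAI against 0.547% and 0.567% with DMSO, a rise of 7.55-fold. G53 had 3.39% and 2.86% against 0.269% and 0.295%, and its NAI replicates were the farthest apart of these 4 in points. G32 had 3.04% and 2.85% against 0.271% and 0.303%, and U117 had 2.75% and 2.61% against 0.462% and 0.379%. The adjusted p of these 4 was at most 7.4e-12 (edgeR), and no NAI library overlapped a DMSO library.

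The middle of the RNA held the other 4, of which 2 stood on a high background. C316 rose from 0.502% and 0.568% with DMSO to 3.34% and 3.39% with NAI, and A172 from 1.05% and 0.943% to 3.30% and 3.13%. G239, inside the first plateau but away from its ends, had 7.80% and 6.46% mutations with DMSO and 12.7% and 11.6% with NAI, only 1.70-fold but 5.01 points. A148 carried mutations in about every other read of all libraries, 50.1% and 49.4% with DMSO and 51.7% and 53.2% with NAI. Its rise of 1.05-fold (edgeR adjusted p = 0.0384) was not called in 6 of the alternative fits and turned to a log2 change of -0.24 with TMM scaling. Each of the other 11 named rises kept its call in every fit run.

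**Figure D2:**
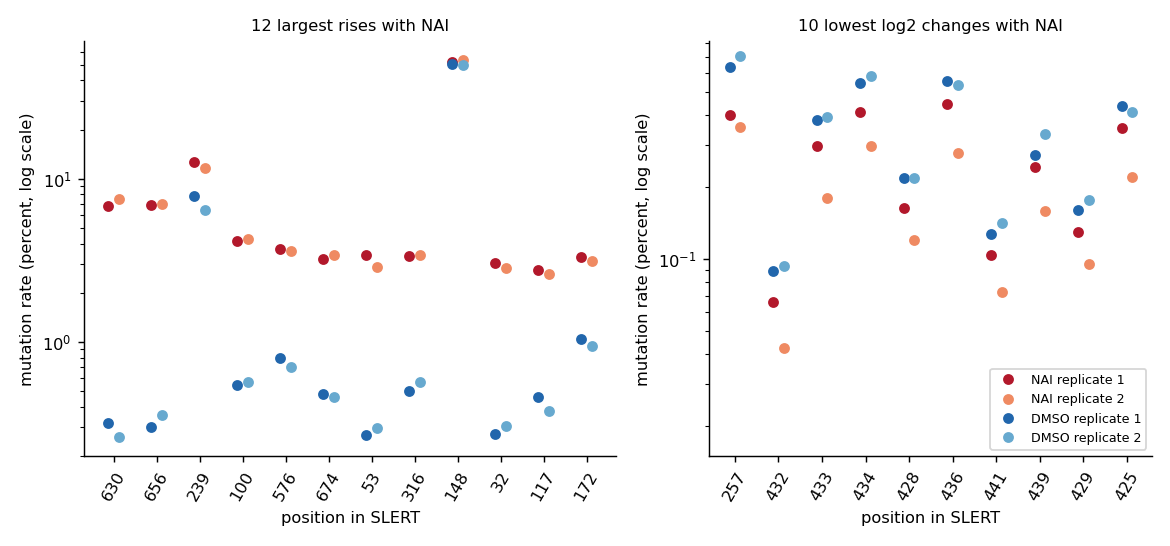
Mutation rate (percent, log scale) in each of the 4 libraries at the 12 nucleotides with the largest rises (left) and the 10 with the lowest log2 changes among those called lower (right), by position in SLERT. At left the NAI points stand clear of the DMSO points except at 148, where all 4 lie between 49.4% and 53.2%, and at right NAI replicate 2 lies lowest at every position.

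G529, likewise on a high background, had 49.4% and 49.0% mutations with DMSO and 47.0% and 48.0% with NAI, and was not called (edgeR adjusted p = 0.227). A148, G239 and G529 were the only kept nucleotides over 5% with DMSO. Leaving all 3 out moved the library difference to 0.244 points and the counts to 307 higher and 23 lower.

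Flexible nucleotides, those called higher, ran together along SLERT. Outside the terminal stretches 308 flexible nucleotides formed 124 runs, of which 60 were single nucleotides and 20 held 5 or more. Runs of 3 or more held 66.9% of them. A flexible nucleotide was followed by another in 59.7% of cases, where 47.1% of all nucleotides were flexible. These shares include the plateaus, and 15 of the 20 runs of 5 or more lay outside them. Between neighbours the log2 ratio correlated with Spearman's rho of 0.290 and 0.301 in the replicates, and between nucleotides 4 apart with 0.044 and 0.159. Neighbours share reads, and these values carry no p. Outside the plateaus rho was 0.291 and 0.215 between neighbours and 0.015 and 0.074 at 4 apart.

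The 6 longest flexible runs show which stretches of the RNA rose with NAI over several nucleotides in a row. Each is printed with 10 bases on either side, and capitals mark nucleotides called higher.
nucleotides 461 to 492, run 471 to 482: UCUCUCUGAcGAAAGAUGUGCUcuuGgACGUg
nucleotides 509 to 538, run 519 to 528: AgCCCUUUGgACAGAACGGUgGagagAgGg
nucleotides 450 to 479, run 460 to 469: gcAGAAGcCcUUCUCUCUGAcGAAAGAUGU
nucleotides 156 to 182, run 166 to 172: cCUgggGUggAUGAGGAggcagGcCcu
nucleotides 70 to 96, run 80 to 86: GCUccacagcUCAUGGGcccugggucA
nucleotides 501 to 527, run 511 to 517: cUAUGGUgAgCCCUUUGgACAGAACGG
The runs 460 to 469 and 471 to 482 are parted by a single C, and so nearly join into 1 stretch.

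Of these, the run ACAGAACGGU at 519 to 528 was the longest outside the plateaus. Its median rate was 0.858% and 0.842% in the NAI replicates against 0.492% and 0.419% with DMSO, and 0.567% and 0.582% in the denatured control. G522 within it rose 11.5-fold, from 0.170% and 0.122% to 1.68% and 1.80%, and the others rose 1.24-fold to 2.87-fold (edgeR adjusted p at most 0.0094 over the run). With TMM scaling 8 of its 10 nucleotides stayed called. It ends next to the high-background G529.

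The run AUGAGGA at 166 to 172 had median rates of 1.17% and 1.12% with NAI and 0.705% and 0.678% with DMSO. Its A172 and G170 rose most, 3.22-fold and 3.74-fold, while G168 and G171 rose 1.40-fold each. The run UCAUGGG at 80 to 86, in the SNORA5C part, had 1.08% and 0.993% against 0.701% and 0.711%. Within it A82 rose 2.51-fold, and its G homopolymer was called at every place. The run CCCUUUG at 511 to 517 rose from 1.29-fold at C513 to 1.96-fold at U514, and TMM scaling kept 2 of its 7 nucleotides.

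The runs at 460 to 469 and 471 to 482 lie at the 3′ end of the second plateau, and their rises were small. GAAAGAUGUGCU had median rates of 0.639% and 0.694% with NAI and 0.513% and 0.485% with DMSO, a median ratio of 1.23 in replicate 1 and 1.59 in replicate 2. UUCUCUCUGA had ratios of 1.34 and 1.63. TMM scaling kept 3 nucleotides of each. G475, in the first of them, rose 3.41-fold, from 0.0614% and 0.0695% to 0.192% and 0.254%, and was called with TMM too. When the depth at plateau ends was rescaled as described below, these runs were no longer among the longest, and 519 to 528 led, followed by 80 to 86, 166 to 172, 501 to 507, 511 to 517 and 555 to 561.

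**Figure D3:**
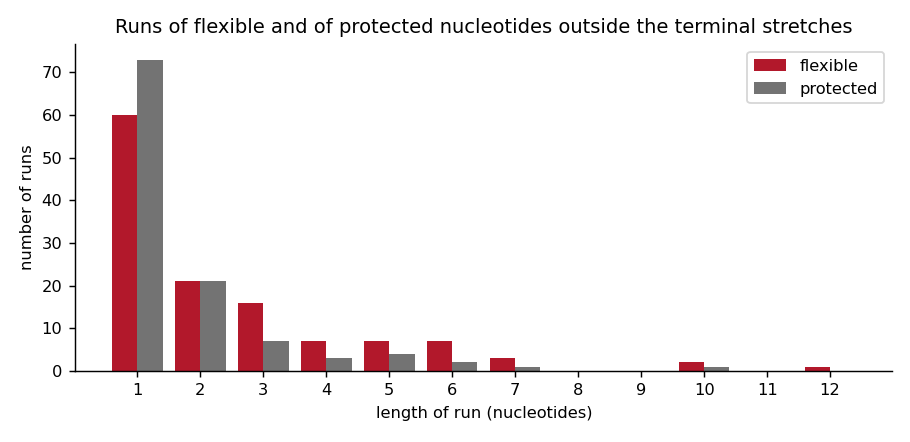
Number of runs of flexible (red) and of protected (grey) nucleotides by run length outside the terminal stretches. Single nucleotides are the commonest run of both kinds, 60 flexible and 73 protected, and the longest run has 12 flexible or 10 protected nucleotides.

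Bases differed in how often they were called. The share called higher was 54.0% of A (67 of 124), 54.0% of U (81 of 150), 43.2% of G (96 of 222) and 34.0% of C (67 of 197), beside 44.9% of all. The median difference was 0.118 and 0.190 points for A in replicates 1 and 2, 0.130 and 0.180 for U, 0.0557 and 0.0669 for G and 0.0354 and 0.0470 for C. In points A and U thus lay above G and C in both replicates, and A and U changed places between them. Background differed likewise, with a median DMSO rate of 0.874% for A and 0.884% for U against 0.359% for G and 0.278% for C. With each NAI rate divided by its DMSO rate, on a log2 scale, the bases lay closer together. The medians were then 0.23 and 0.28 for A and 0.23 and 0.33 for U in replicates 1 and 2. For G they were 0.18 and 0.23, and for C likewise 0.18 and 0.23. A and U stayed above G and C on this scale, but by little. In the share called higher, C was the lowest with TMM scaling (19.3%) and outside the plateaus (32.1%) as well. The part of the background in this order was not tested.

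The next base on the 3′ side went with larger differences than the base before. Nucleotides followed by U were called higher in 58.4% of 149 places, those followed by G in 44.6%, by C in 40.1% and by A in 36.8%. For the 5′ neighbour the shares ran only from 41.3% after C to 52.7% after U. Under TMM scaling the 3′ neighbour U stayed first (40.9%), but the others changed order, to A (26.4%), G (24.3%) and C (17.3%). For the 5′ neighbour, A (36.3%) then came before U (30.7%). Only the place of U on the 3′ side thus held in both. G before U was called at 30 of 43 places (69.8%), at 26 with TMM scaling and at 66.7% of those outside the plateaus. A before U was called at 16 of 24 places (66.7%), and at 70.0% of those outside the plateaus. G before G was called at 21 of 77 places (27.3%). C before A was called at 22.8% of 57 places and C before C at 26.9% of 67. The same base could thus be called often or seldom with its neighbour.

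Homopolymers were called less often than other places, but not for every base. Inside homopolymers of 3 or more, 46 of 145 nucleotides were called higher (31.7%), against 265 of 548 outside (48.4%). For G the shares were 20.8% of 53 inside and 50.3% of 169 outside, and 25.0% and 49.3% without the plateaus. For A, 6 of 15 were called inside and 61 of 109 outside, and 25.0% and 52.8% without the plateaus. However, A13 to A15 and A675 to A677 lie in the terminal stretches and had no call. Of the other A homopolymers, A472 to A474, in the second plateau, had 3 calls, A573 to A575 had 2 and A627 to A629 had 1. Of all A outside the terminal stretches 59.1% were called, so the order for A depends on those stretches. For C they were 30.5% and 35.5%, and without the plateaus the order turned, to 33.3% and 31.5%. For U the share was higher inside, with 61.1% of 18 against 53.0% of 132, and 61.1% against 51.4% without the plateaus. C101 to C103 was called higher over its whole length, G40 to G44 at no place.

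**Figure D4:**
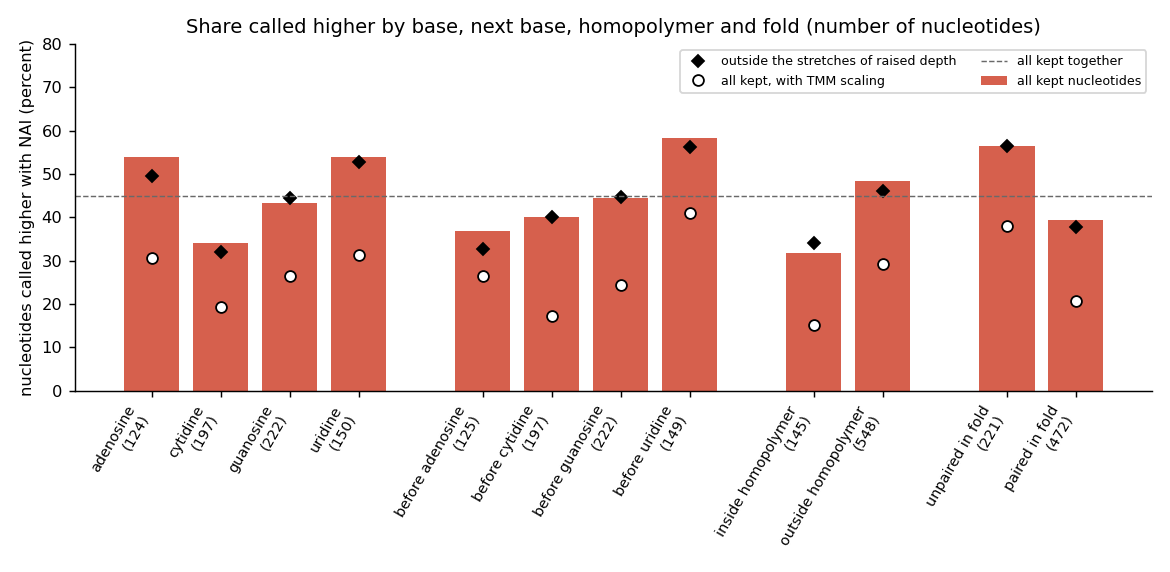
Share of nucleotides called higher (percent, bars) by base, by the base on the 3′ side, inside and outside homopolymers and by pairing in the sequence-only fold, with the number of nucleotides in parentheses, diamonds for the share outside the plateaus, circles for TMM scaling and a dashed line at 44.9% for all kept nucleotides. Bars run from 31.7% inside homopolymers to 58.4% before uridine, and TMM scaling lowers every class.

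The trinucleotide AUG recurred in the flexible runs and was counted for that reason, after the runs had been seen. In 10 of its 14 places all 3 nucleotides were called higher, against 120 of all 652 trinucleotide positions (18.4%). With TMM scaling it was 6 places, and outside the plateaus 9 of 11. At AUG 556 to 558 the mean rate was 1.62% and 1.77% with NAI and 0.606% and 0.564% with DMSO. At AUG 595 to 597 none of the 3 was called, although the AUG at 591 to 593, parted from it by 1 nucleotide, was called at all 3. Both are shown with 6 bases on either side of the trinucleotide, capitals again marking calls of higher.
AUG 556 to 558: cugcaGAUGcCUgca
AUG 591 to 593: uGUcCUAUGCauggu
AUG 595 to 597: CUAUGCaugguagGc
Of the 31 trinucleotides found 10 times or more, CCA (17 places), GGC (23) and GAC (11) were never called at all 3 nucleotides. GGG was called so at 1 of 23 places and CAG at 1 of 27.

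Local GC content was at most weakly related to the rise. Over the 21 bases around a nucleotide, 50.0% of 74 nucleotides were called higher at 40 to under 50% GC, 52.6% of 171 at 50 to under 60% and 43.9% of 415 at 60% and over. Outside the plateaus the shares were 37.9%, 48.0% and 46.7%, in another order. Under 40% only 1 of 14 was called, and 11 of these 14 lie in the terminal stretches. Spearman's rho between this GC content and the difference of rate was -0.0545 and -0.132 in the replicates, and over 11 bases -0.175 and -0.239. Base composition and shared reads enter both. The called bases themselves were poorer in GC: flexible nucleotides were 52.6% GC and those in runs of 4 or more 45.6%, against 61.9% of all outside the terminal stretches. In those runs U made up 33.5% of nucleotides, against 21.3% of all.

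Nucleotides left unpaired when the sequence alone was folded to minimum free energy (RNAfold, no reactivity used) were called higher more often. The share was 56.6% of 221 unpaired and 39.4% of 472 paired nucleotides, 56.5% and 37.7% outside the plateaus and 38.0% and 20.8% with TMM scaling. The median difference between same-numbered libraries was 0.152 ± 0.0306 points (SD, n = 2) for unpaired and 0.0504 ± 0.0044 for paired nucleotides. Unpaired exceeded paired within each base: 63.5% against 44.3% for A, 47.1% against 29.5% for C, 57.4% against 39.4% for G and 56.7% against 52.2% for U. The fold is a prediction, and these shares carry no test.

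Protected nucleotides were taken as those not called higher whose NAI rate was at most 1.1 times the DMSO rate in both replicates. Outside the terminal stretches there were 197, in 112 runs, and another 149 nucleotides were neither flexible nor protected. Single nucleotides made up 73 of the runs, and 8 runs held 5 or more. The latter count rests on the limit set for the ratio: it was 0 with a ratio of at most 1 and 17 with a wider limit. Without runs touching a plateau it was 4. A protected nucleotide was followed by another in 43.1% of cases, where 30.1% of all were protected. Protected runs of 4 or more were 70.5% GC, and these shares too include the plateaus. Of the 6 longest, 5 are printed with 10 bases on either side, capitals marking nucleotides called higher.
nucleotides 415 to 444, run 425 to 434: GUgcCcUUGCugcgggccaucuccuAcCAC
nucleotides 243 to 269, run 253 to 259: UgCACuggAUgggaccaugggaccccu
nucleotides 636 to 661, run 646 to 651: gacUCAUGgGcccuguuccuGuGUCC
nucleotides 257 to 281, run 267 to 271: ccaugggaccccugcccccaGcUcA
nucleotides 80 to 104, run 90 to 94: UCAUGGGcccugggucAccUACCCU
The runs 425 to 434, 253 to 259 and 267 to 271 lie at an end of a plateau.

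The other printed runs, CCCUGU at 646 to 651 and UGGGU at 90 to 94, lie outside the plateaus. CCCUGU, in the SNORA5A part, had median rates of 0.628% and 0.653% with NAI, 0.693% and 0.687% with DMSO and 0.897% and 0.863% in the denatured control. It is parted by 4 nucleotides from G656, whose rise was large. UGGGU, in the SNORA5C part, had 0.467% and 0.475% against 0.467% and 0.483%. In both runs no nucleotide was called lower than DMSO.

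At the ends of the plateaus, the 5′ end of the first excepted, the change with NAI moved with the depth step. At the 5′ end of the second plateau, the read depth just outside was 33.5% and 21.5% of that inside in the NAI replicates and 41.8% and 43.3% in DMSO, so the outside share with NAI was 0.800 and 0.496 times that with DMSO. Over the 20 nucleotides inside this end the median ratio of mutation rates was 0.920 and 0.537. At its 3′ end the corresponding depth ratios were 1.15 and 1.39, and the median ratios of mutation rates 1.23 and 1.64. At the first plateau they were 0.906 and 0.710 for depth and 0.951 and 0.705 for rate at the 3′ end, and 1.04 and 1.14 for depth and 1.13 and 1.18 for rate at the 5′ end. All 4 ends thus had a rate ratio on the same side of 1 as the depth ratio in both replicates. The whole RNA also lay above 1, with a median log2 ratio of 0.204 and 0.260 over all kept nucleotides. Beside this the 5′ end of the first plateau, at 0.174 and 0.233, was not raised, whereas the 3′ end of the second, at 0.303 and 0.714, was.

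The calls followed the same pattern, again except at the 5′ end of the first plateau. Of the 20 nucleotides inside the 3′ end of the second plateau, 19 were called higher, and at its 5′ end 9 were called lower and 4 higher. At the 3′ end of the first plateau 6 were called lower and 1 higher. At its 5′ end 10 were called higher (50.0%, beside 44.9% of all kept nucleotides) and none lower. These ends held all 15 lower calls of the plateaus. With the effective depth of these 20 nucleotides scaled by the outside over the inside read depth, the second plateau's ends gave 6 higher and 0 lower at the 3′ end and 8 higher and 0 lower at the 5′ end. The first plateau's gave 3 higher and 1 lower at the 3′ end, and 6 higher and 2 lower at the 5′ end, where no nucleotide had been called lower before. Over the whole RNA that fit (edgeR) called 312 nucleotides higher and 12 lower. The scaling shifts the NAI to DMSO ratio of all 20 nucleotides at an end by the same factor within a replicate. Calls gained or lost there are therefore no separate test of a nucleotide.

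**Figure D5:**
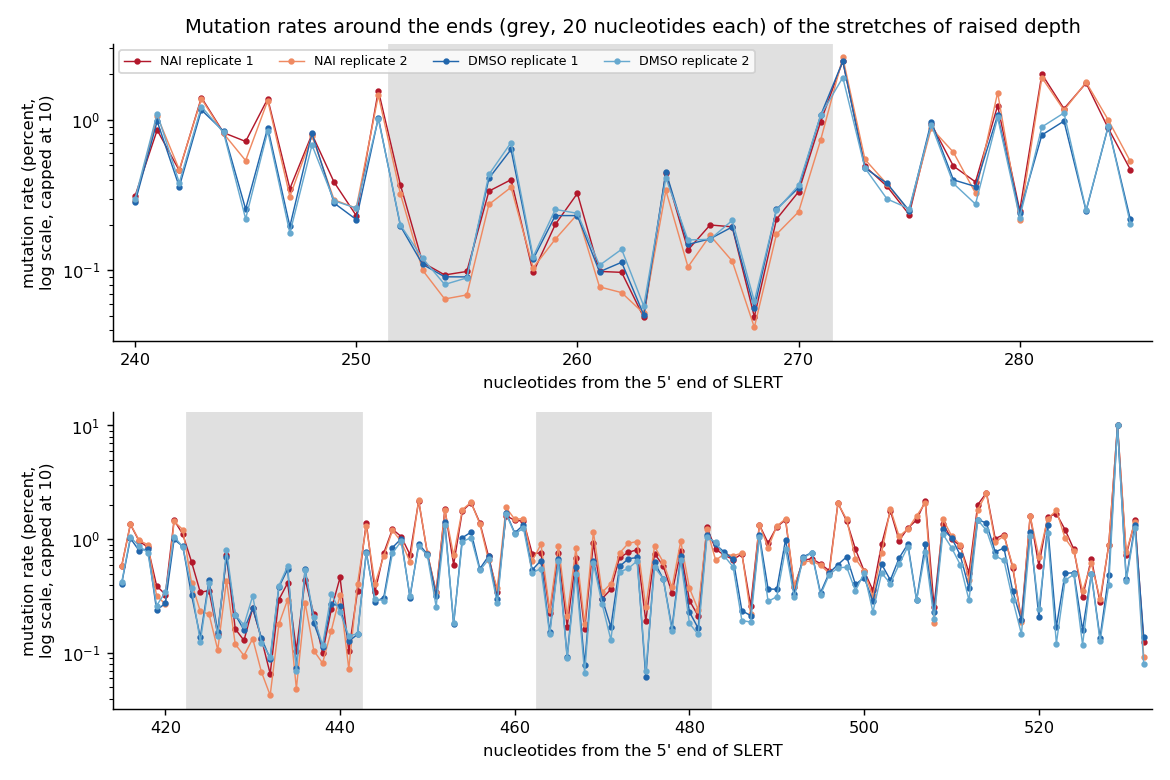
Mutation rate (percent, log scale, capped at 10) in the 4 libraries along nucleotides 240 to 285 (top) and 415 to 532 (bottom), with the 20 nucleotides inside a plateau's end in grey. In the grey stretches at 252 to 271 and 423 to 442 NAI replicate 2 runs below the DMSO libraries at most positions, and at 463 to 482 both NAI libraries run above DMSO at most positions.

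The nucleotides called lower were few and moved little. Their rates with NAI were 0.546-fold to 0.889-fold of DMSO, with a median of 0.694-fold, and in all 23 both NAI libraries lay below both DMSO libraries, against 69 of all 693 nucleotides. Of the 10 with the lowest log2 change outside the terminal stretches, C257 had 0.400% and 0.356% with NAI and 0.636% and 0.706% with DMSO (0.569-fold, edgeR adjusted p = 1.69e-06). It lies in the protected run 253 to 259, and it kept its call in every fit run, the one with outside depth included. The other 9, C432, A433, U434, G428, U436, C441, U439, G429 and U425, all lie in nucleotides 423 to 442. C432 had 0.0661% and 0.0427% with NAI and 0.0890% and 0.0933% with DMSO. The fit with outside depth, which raises the NAI to DMSO ratio of these 9 by a common factor, called none of them. The lowest log2 change among them was then -0.11.

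Outside the plateaus 8 nucleotides were called lower, and they are named here after their values were seen. They are C23, G40, C87, C98, C370, C483, A625 and, in the 3′ terminal stretch, C686. C370 had the largest fall in points, from 1.29% in both DMSO replicates to 1.03% and 0.962% with NAI (0.775-fold, edgeR adjusted p = 0.00587). C87, at the start of a C homopolymer right after the flexible run UCAUGGG, fell from 0.633% and 0.558% to 0.482% and 0.436% (0.772-fold, edgeR adjusted p = 0.00511). The others outside the terminal stretch were between 0.760-fold and 0.889-fold. C483 directly follows the second plateau. By base, 6 of the 8 were C, where C made up 159 of the 573 nucleotides kept outside the plateaus. With so few calls, named after the fact, no preference for a base can be read from this.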

How the data were processed

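Mutation counts, read depths and effective depths of SLERT were deposited per nucleotide as whole-number counts, per the file headers, with 1 table a replicate holding NAI, DMSO and denatured control. The deposited mutation rates are a fraction and equalled mutation count over effective depth to within 5e-07. Rates are printed in percent. Per the submitters' processing notes, bcl2fastq 2.17.1.14 was used. For the aligner, mutation counter, filters and genome build, names and versions were not given in the sources used here. Deposited reactivity scores were left unused.

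Mutation counts of the 693 nucleotides were tested with edgeR 4.0.16 (R 4.3.3; quasi-likelihood, log effective depth as offset, all 6 SLERT libraries in 1 fit, Benjamini-Hochberg over all 693, threshold 0.05). A fold is the fitted NAI over DMSO rate. Pooling draws each nucleotide's spread towards a common one. Alternatives were TMM scaling, DESeq2 1.42.0, limma 3.58.1, other filters, depths and samples, and fits without plateaus or with outside depth at their ends. A plateau began and ended where read depth stepped by over 0.25 on the log2 scale in all 4 libraries. Folding used ViennaRNA 2.7.2. The test was checked on simulated counts.

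Terminal stretches stopped where the mutation rate first reached 0.05% in all 4 libraries. The text names, outside them, the 12 called higher with the largest mean difference, the 10 called lower with the lowest log2 change, and the 6 longest runs of each kind, of which 1 protected run is not reported here. Members, lists and rules were chosen with earlier results of these data known. In DMSO replicate 2, the shallowest, 3 mutations at the median depth correspond to 0.0026%, a floor that covers counting error only. Replicates of a group differed by more than sampling noise.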

Additional observations from a re-analysis of the deposited data

How the results depend on the processing

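With TMM scaling the calls were 182 higher and 192 lower. The share called higher became 30.6% for A, 19.3% for C, 26.6% for G, 31.3% for U, 38.0% for unpaired and 20.8% for paired nucleotides, flexible runs of 5 or more fell from 20 to 4, and A148 turned to a log2 change of -0.24. The lower calls were 9 without the plateaus, 12 with outside depth at plateau ends, and 10 to 39 with 1 library left out. Without plateaus the library difference was 0.290 points, and protected runs of 5 or more numbered 4 in place of 8. Those runs numbered 0 with a ratio of at most 1 and 17 with a wider limit. Letting 1 uncalled nucleotide interrupt a flexible run gave 34 runs of 5 or more. The mean rho of GC with the difference, -0.0934 over 21 bases, was -0.152 over 51 and -0.207 over 11. With outside depth the log2 change turned to 0.0151 at G428, 0.0292 at U436, 0.0355 at C441, 0.0505 at U439, 0.0581 at G429 and 0.0629 at U425. The causes were not tested, and the depth ratios given above only describe the plateau ends.

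Other settings left the counts within 1.5 times: DESeq2 gave 310 higher and 20 lower, limma 319 and 21, and a replicate block 323 and 25. Deviations of same-numbered libraries from their group means correlated with r = 0.0047 for NAI with DMSO, -0.0579 for NAI with denatured control and 0.331 for DMSO with denatured control (654 nucleotides). With 2 replicates these do not settle whether the numbers pair the libraries. Of 454 values recomputed, 386 stayed within the limit set for their kind. The limit was 1.5 times for counts, the 95% interval for shares and the SD between replicates for means. For a named nucleotide it was the same direction with the call kept. Many of the rest kept their direction but moved beyond the limit or lost the call. Counts limit the terminal stretches most, and 655 of 693 nucleotides had at least 10 mutations in each library.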

Other observations

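Besides the 12 named rises, 2 nucleotides outside the terminal stretches rose at least 10-fold, G522 and G613, both G on a background below 0.2%. G613, in the SNORA5A part, had 1.46% and 1.78% mutations with NAI and 0.148% and 0.123% with DMSO (11.7-fold, edgeR adjusted p = 6.14e-12). It was picked after its values were seen.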
